A study of Drosophila melanogaster and Drosophila virilis and Drosophila yakuba with 44 samples.

Results

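The 45 genes described here are the seminal fluid protein genes of Drosophila melanogaster that the count tables list under Acp or Sfp symbols followed by a cytological position. They comprise 17 Acp genes (accessory gland protein) and 28 Sfp genes (seminal fluid protein), out of 13458 genes counted. The rule used the symbol alone and no measured value, although it was set with earlier results of these data known. The cuticle gene Acp65Aa, which shares the prefix, was left out. The sex peptide gene, whose older symbol is Acp70A, is listed as SP and was therefore placed among the comparison lists.

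Seminal fluid proteins are secreted by the male reproductive tract and transferred with sperm at mating. Most are made in the paired accessory glands, and others in the ejaculatory duct and the ejaculatory bulb, which together join the testes to the genital opening. In the mated female they are known to affect ovulation, egg laying, receptivity to further mating, sperm storage, and the mating plug, and many belong to families of protease inhibitors, proteases, lectins, and small peptides.

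The study mapped polyadenylation sites with 3′-seq, which sequences the junction of a transcript with its poly(A) tail, and the same reads give gene levels. D. melanogaster contributed 23 3′-seq libraries and 3 total RNA-seq libraries, with 1 library per condition, so that no difference below has a replicate check and no test was made. The 3 male 3′-seq libraries were male whole flies (mated, 2–5 days old), male carcass (2–5 days old, with the head cut off and the testes removed), and testis (2–5 days old, Canton S). Female whole flies (mated, 2–5 days old), female carcass (2–5 days old, without head and ovaries), ovary, and head of mated females (both 2–5 days old, Canton S), embryos from 6 time windows, and 10 cultured cell lines form the other 20. Canton S is a wild-type strain, which the methods do not restate for whole flies and carcass, and no transgene or treatment is mentioned. The methods do not give the number of flies per library, nor whether the accessory glands and ducts stayed with the carcass or came away with the testis.

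The counted reads amounted to 15034934 in male carcass, 10024870 in male whole flies, and 8713346 in testis. The other 20 libraries held between 42379 and 15693295. Levels are reads per 1000000 (RPM), with library sizes scaled over the 23 libraries by the trimmed mean of M-values (TMM). The 3 counts that a 0 leaves possible equal 0.306 RPM in male carcass, 0.3599 RPM in male whole flies, and 0.636 RPM in testis. Intervals are 95% exact intervals, which cover counting error only and treat each read as independent. PCR copies are not independent molecules, so that the intervals may be too narrow even for counting error. RPM in 3′-seq is compared between genes without division by length because each transcript end gives its reads at 1 site.

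Marker lists placed the male libraries as follows. Testis germline genes (17 listed, 16 with any count) summed to 47070 RPM in testis, 2378 RPM in male whole flies, and 25.2 RPM in male carcass, where 6 of the 16 had no count. Among them, bam had more counts in ovary (662) than in testis (46). Photoreceptor and neuronal genes (9 listed) summed to 3937 RPM in male whole flies and 194 RPM in male carcass. In female whole flies they summed to only 445 RPM, and the bearing of this on the whole-fly comparison between the sexes was not tested. The male whole-fly library stands apart in another respect. Ovary germline transcripts (9 genes) summed to 3095 RPM in it, against 6577 RPM in female whole flies and 39.3 RPM in male carcass, and dhd, a thioredoxin of the oocyte, alone held 17633 counts. The 3 yolk protein genes were at 26.5 RPM in male whole flies and at 45939 RPM in female whole flies. Chorion and vitelline membrane genes (10 listed, 9 with any count) summed to 204 RPM in male whole flies and 42133 RPM in female whole flies. Of the 1697 counts of these genes in male whole flies, 1613 were of Cp36, which also had 3456 counts in testis. The part of these transcripts in the whole-fly values below was not tested, and values are given for male carcass as well. Outside the male libraries, 0–45 min embryos stand apart with 510 reads of the 45 genes, at 1.15 per 1000 reads in male whole flies (1.06–1.26).

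Reads of the seminal fluid genes were held almost entirely by the 3 male libraries, with 770695 of 771851 reads over the 23 libraries (99.9%). They made up 4.41% of counted reads in male whole flies (4.399–4.424), 1.99% in male carcass (1.99–2.00), and 0.331% in testis (0.328–0.335). No other library exceeded 0.00962%, the share in 0–45 min embryos. The 4 female libraries held 119 of these reads among 38055750. Female whole flies had none in 1519235, which allows a share of up to 0.000197%. The plot of shares shows the gap between the male libraries and the rest.

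**Figure D1:**
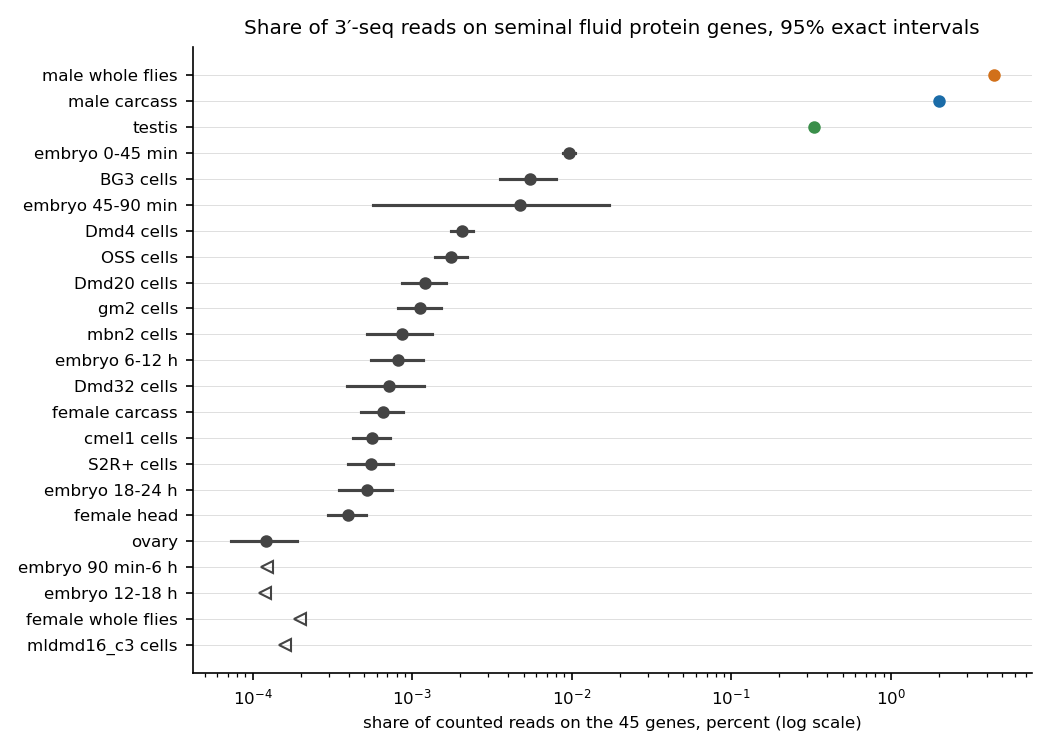
Share of counted 3′-seq reads (x axis, percent, log scale) that fall on the 45 seminal fluid genes, for each of the 23 libraries (y axis), with 95% exact binomial intervals and open triangles at the limit that 0 counts allow. Male whole flies (4.41%), male carcass (1.99%), and testis (0.331%) lie to the right of the other 20 libraries, the highest of which is 0–45 min embryos (0.00962%).

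Male carcass was compared with female carcass, and male whole flies with female whole flies, to ask how far these transcripts are restricted to males. In carcass, 44 of the 45 genes were at least 4-fold higher in the male library, where 10.1% of all 13458 genes were. The median log2 difference of the 45 genes was 7.51, with counts under 3 raised to 3, beside 0.11 over all genes. Summed over the genes, the level in the male library (30544 RPM) was 3101-fold higher (2310–4267) than in the female one (9.85 RPM). Of the 44 reads in female carcass, 24 were of Acp63F, which had 4811 in male carcass, and 37 of the 45 genes had none. The share of all genes without a read there was not calculated. In whole flies, 43 genes were at least 4-fold higher in the male library, against 25.8% of all genes. The summed level of 53049 RPM was 35916-fold the level that 3 counts would give in the female library, which had 0. The exact interval of the ratio begins at 29209. Sfp33A2, with 34 counts in male whole flies, could be bounded at only 2.76-fold, which left it short of 4-fold at that depth.

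Sfp87B was the exception in both comparisons. It had 0 counts in all 23 3′-seq libraries and all 3 RNA-seq libraries. In the gene annotation it lies wholly inside svp on the same strand (3R:12273126-12273521), and how reads on overlapping genes were assigned is not stated. Its level was therefore not measured, and the values below concern the other 44 genes.

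A few genes held most of the reads. In male carcass, levels ranged from 3.16 RPM (Sfp33A2) to 8138 RPM (Sfp60F), with a median over the 45 genes of 127 RPM, beside a median of 9.99 RPM over all genes. Sfp60F, Acp95EF, and Sfp24Bb together took 55.3% of the seminal fluid reads there, and the first 10 genes took 86.4%. Acp95EF was the gene with the most reads in the entire male whole-fly library, with 106510 counts (12777 RPM), and 8 of the 45 were among its first 100 genes. In testis, Acp95EF was again the highest of the set (2367 RPM), at rank 98 of all genes. More than 100 RPM was reached by 25 of the 45 genes in male carcass (15.5% of all genes), 30 in male whole flies (15.0% of all genes), and 10 in testis (21.0% of all genes). These counts correspond to 55.6%, 66.7%, and 22.2% of the 45 genes, so that their share stood above that of all genes in male carcass and male whole flies and near it in testis.

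The 10 highest in male carcass can be followed through the 3 libraries. Sfp60F had 8138 RPM in male carcass, 6116 RPM in male whole flies, and 2.12 RPM in testis. Acp95EF had 5498, 12777, and 2367 RPM in the same order. Sfp24Bb had 3265, 2378, and 0.424 RPM. These genes thus differ by orders of magnitude in the testis library although they are near each other in carcass. Acp54A1 had 2745 RPM in male carcass, 3752 RPM in male whole flies, and 26.7 RPM in testis. Acp33A had 1802, 3268, and 347 RPM, and Sfp96F had 1740, 3664, and 401 RPM. Acp98AB had 1313, 3375, and 308 RPM. All 4 of them were higher in whole flies than in carcass, and only Acp54A1 was under 0.1 of its carcass level in testis. Sfp79B had 805 RPM in male carcass, 5857 RPM in male whole flies, and 858 RPM in testis. Acp36DE had 545, 1688, and 202 RPM, and Acp62F had 535, 1609, and 332 RPM. Sfp79B was the only one of the 10 with a testis level above its carcass level. The plot of levels shows all 45 genes.

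**Figure D2:**
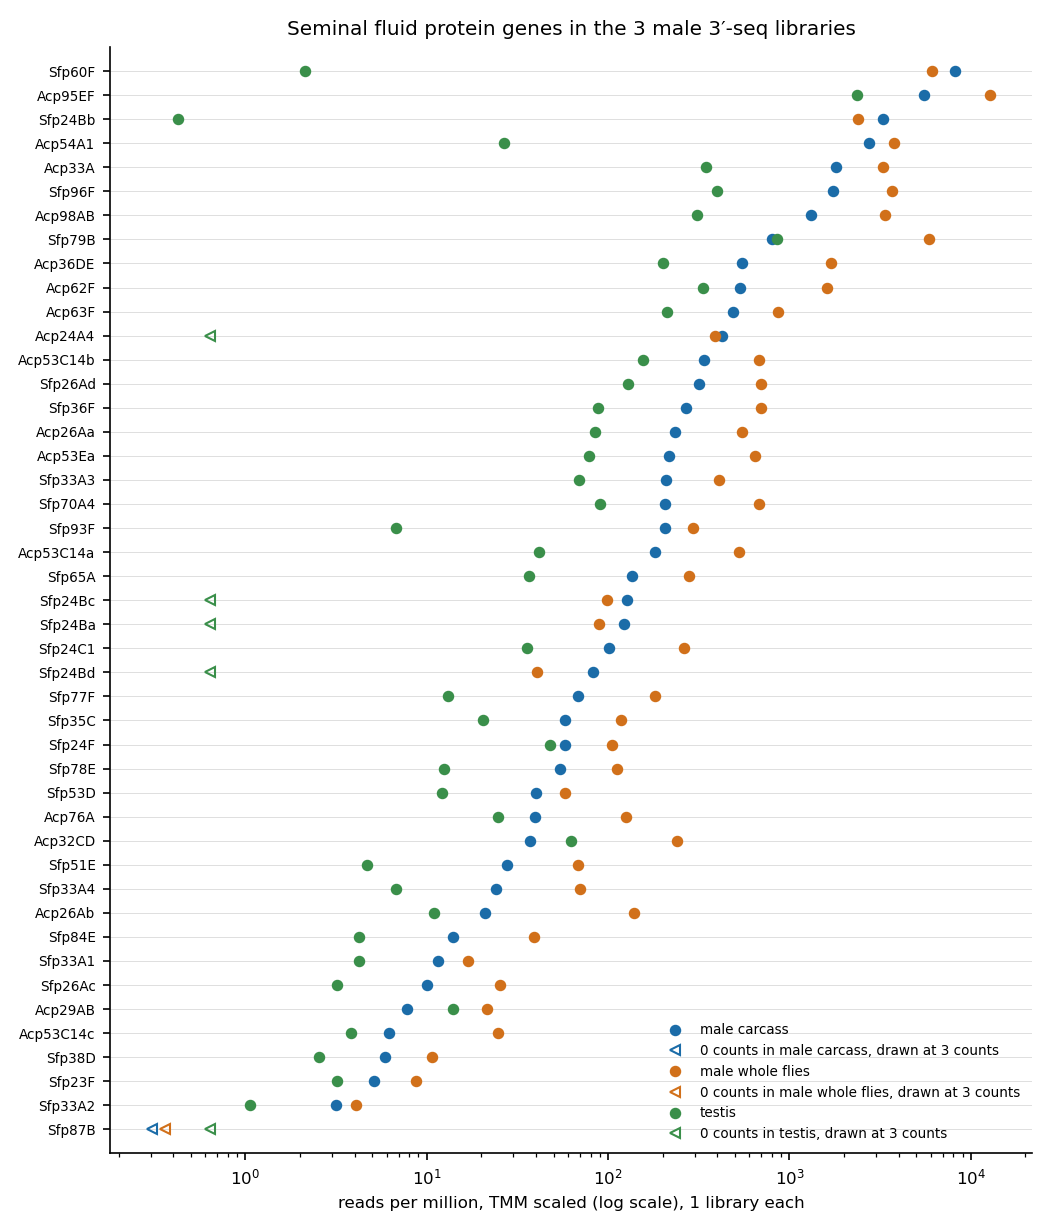
Level of each of the 45 genes (y axis, ordered by male carcass) as TMM-scaled RPM (x axis, log scale) in male carcass, male whole flies, and testis, 1 library each, with 0 counts drawn as open triangles at 3 counts. Whole-fly points lie to the right of carcass points for most genes, and the testis points of 8 genes, among them Sfp60F (2.12 RPM) and Sfp24Bb (0.424 RPM), lie far to the left.

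The genes with a described role covered a wide range of levels. Acp36DE, a glycoprotein needed for sperm storage, was the most abundant of the Acp genes among them in male whole flies (14072 counts, 1688 RPM). Acp62F, which resembles a trypsin inhibitor, had 13415 counts there (1609 RPM). Acp53Ea, a small secreted accessory gland protein, had 218 RPM in male carcass, 644 RPM in male whole flies, and 78.4 RPM in testis. Acp26Aa (ovulin), a prohormone-like protein that raises ovulation after mating, had 234, 548, and 84.2 RPM in the same order. The levels of Acp53Ea and Acp26Aa were close in all 3 libraries. Acp26Ab, the neighbour of Acp26Aa on 2L, had 20.9 RPM in male carcass, 139 RPM in male whole flies, and 11.02 RPM in testis. Acp76A, a serpin, had 39.6, 126, and 24.6 RPM. Acp29AB, a lectin-like protein involved in sperm retention in storage, was the lowest of the group in male carcass (7.75 RPM) and male whole flies (21.6 RPM), and had 14.0 RPM in testis. Sex peptide itself (SP), which induces egg laying and lowers receptivity, had 940 RPM in male carcass, 1746 RPM in male whole flies, and 149 RPM in testis.

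Male carcass was next compared with male whole flies. None of the 45 genes was at least 4-fold higher in carcass (1.66% of all genes were), and 3 were at least 4-fold higher in whole flies (17.7% of all genes were), namely Acp26Ab, Acp32CD, and Sfp79B. The median log2 difference, carcass minus whole flies, was −1.07, beside −0.23 over all genes. Summed over the 45 genes, the carcass level was 0.576 of the whole-fly level (0.573–0.578). The counting interval of the ratio lay under 1 for 37 genes (42.5% of all genes), above 1 for 6 genes (28.1% of all genes), and on both sides of 1 for Sfp33A2. The 6 genes above 1 were Acp24A4, Sfp24Ba, Sfp24Bb, Sfp24Bc, Sfp24Bd, and Sfp60F, of which Acp24A4 falls under 1 when libraries are scaled to their totals. With DESeq2 size factors Acp54A1 and Sfp33A2 also pass 1. The other scalings move every ratio of carcass to whole flies by −0.35 (library totals) or 0.45 (DESeq2) on the log2 scale, so that the order of the genes, which no scaling changes, is the firmer reading.

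Among the 38 genes with at least 100 counts in both libraries, the ratio of carcass to whole flies was lowest for Sfp79B and highest for Sfp24Bd. Sfp79B had 7892 counts in male carcass and 48824 in male whole flies, a ratio of 0.137 (0.134–0.141). Sfp24Bd had 811 and 337 counts, a ratio of 2.05 (1.80–2.33). Acp26Ab (0.150, interval 0.129–0.175) and Acp32CD (0.155, 0.138–0.173) were next to Sfp79B at the low end. The gap between the ends is far larger than the counting error. Despite these differences the order of the 45 genes was similar in the pair of libraries, with a Spearman rho of 0.96 as a description (n = 45 genes of a single library each).

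Testis was compared with male carcass to see where in the tract the reads lie. In bulk tissue, fewer cells of a type and less RNA per cell cannot be told apart. Of the 45 genes, 39 (86.7%) had more than 3 counts in testis, where 78.4% of all genes did. In all, 15 were at least 4-fold higher in male carcass than in testis, where 18.5% of all genes were. None was at least 4-fold higher in testis, against 24.5% of all genes. The median log2 difference, carcass minus testis, was 1.58, beside −0.70 over all genes. Relative to whole flies, 38 genes were at least 4-fold lower in testis, beside 17.7% of all genes. Summed over the genes, the testis level was 0.2004 of the carcass level (0.198–0.203) and 0.115 of the whole-fly level (0.114–0.117). The interval of the ratio of testis to carcass lay under 1 for 39 genes (35.6% of all genes) and on both sides of 1 for Acp53C14c and Sfp23F. It lay above 1 (39.4% of all genes) for Acp29AB, Acp32CD, and Sfp79B, the last of which falls under 1 with library totals.

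The genes were not spread evenly along this ratio. For 8 genes the testis level was under 0.1 of the carcass level, and for 36 it was 0.1 or more. At least 10-fold higher levels in carcass were seen for 9.96% of all genes and for these 8 of 45. Acp24A4, Sfp24Ba, and Sfp93F fell outside the rule for named genes and were named after their values were seen. On the lower side, the values nearest to 0.1 were 0.0328 (Sfp93F) and 0.00973 (Acp54A1). On the upper side they were 0.169 (Sfp51E, 22 testis counts) and 0.192 (Acp33A, 1635 testis counts). The 8 genes were the same 8 with library totals and with DESeq2 size factors.

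In the lower group, Acp24A4, Sfp24Ba, Sfp24Bc, and Sfp24Bd had 0 counts in testis, with 4182, 1198, 1250, and 811 counts in male carcass, respectively. With 0 counts allowing up to 3, their testis levels were at most 0.00149, 0.00521, 0.00499, and 0.00769 of the carcass levels. Sfp24Bb had 2 counts in testis and 32026 in male carcass, a ratio of 0.00013 (1.6e-05 to 0.00047). Sfp60F had 10 and 79818 counts, a ratio of 0.00026 (0.00013–0.00048). Acp54A1 (126 and 26929 counts) and Sfp93F (32 and 2026 counts) were present in testis at low levels. The 8 genes together held 49.5% of the seminal fluid reads in male carcass, 24.8% in male whole flies, and 0.589% in testis.

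In the upper group, the ratio of testis to carcass had a median of 0.3598, with quartiles of 0.298 and 0.477. At its top, Acp29AB had 66 counts in testis and 76 in male carcass, a ratio of 1.81 (1.28–2.54). Acp32CD had 295 and 364 counts, a ratio of 1.69 (1.44–1.97), and Sfp79B had 4048 and 7892 counts, a ratio of 1.07 (1.03–1.11). These 3 testis levels were still under the whole-fly levels. Sfp24F followed at 0.832 (0.710–0.972). The most abundant gene of the group, Acp95EF, had 11166 counts in testis and 53925 in male carcass, a ratio of 0.431 (0.422–0.439). Acp26Aa, Acp53Ea, and Acp36DE had ratios of 0.3598, 0.3598, and 0.370, and Acp62F and Acp76A had 0.620 and 0.622. Acp26Ab had 0.527, so that all of the Acp genes with a described role except Acp29AB lay between 0.3598 and 0.622.

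The groups, which were split after the values were seen, also differed between carcass and whole flies, and both ratios share the carcass library. The ratio of carcass to whole flies ran from 0.699 to 2.05 in the lower group and from 0.137 to 0.775 in the upper group, so that the groups overlapped only through Sfp93F, Acp54A1, and Sfp33A2. Their medians were 1.31 and 0.401. Summed levels were 15113 RPM in male carcass and 13159 RPM in male whole flies for the lower group, and 15431 and 39890 RPM for the upper group. In TMM-scaled RPM, the net excess of whole flies over carcass thus lay in the upper group, although Acp54A1 and Sfp93F of the lower group were also higher in whole flies. With library totals the sum of the lower group was slightly higher in whole flies too, with a ratio of carcass to whole flies of 0.901. The plot of ratios shows both contrasts gene by gene.

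**Figure D3:**
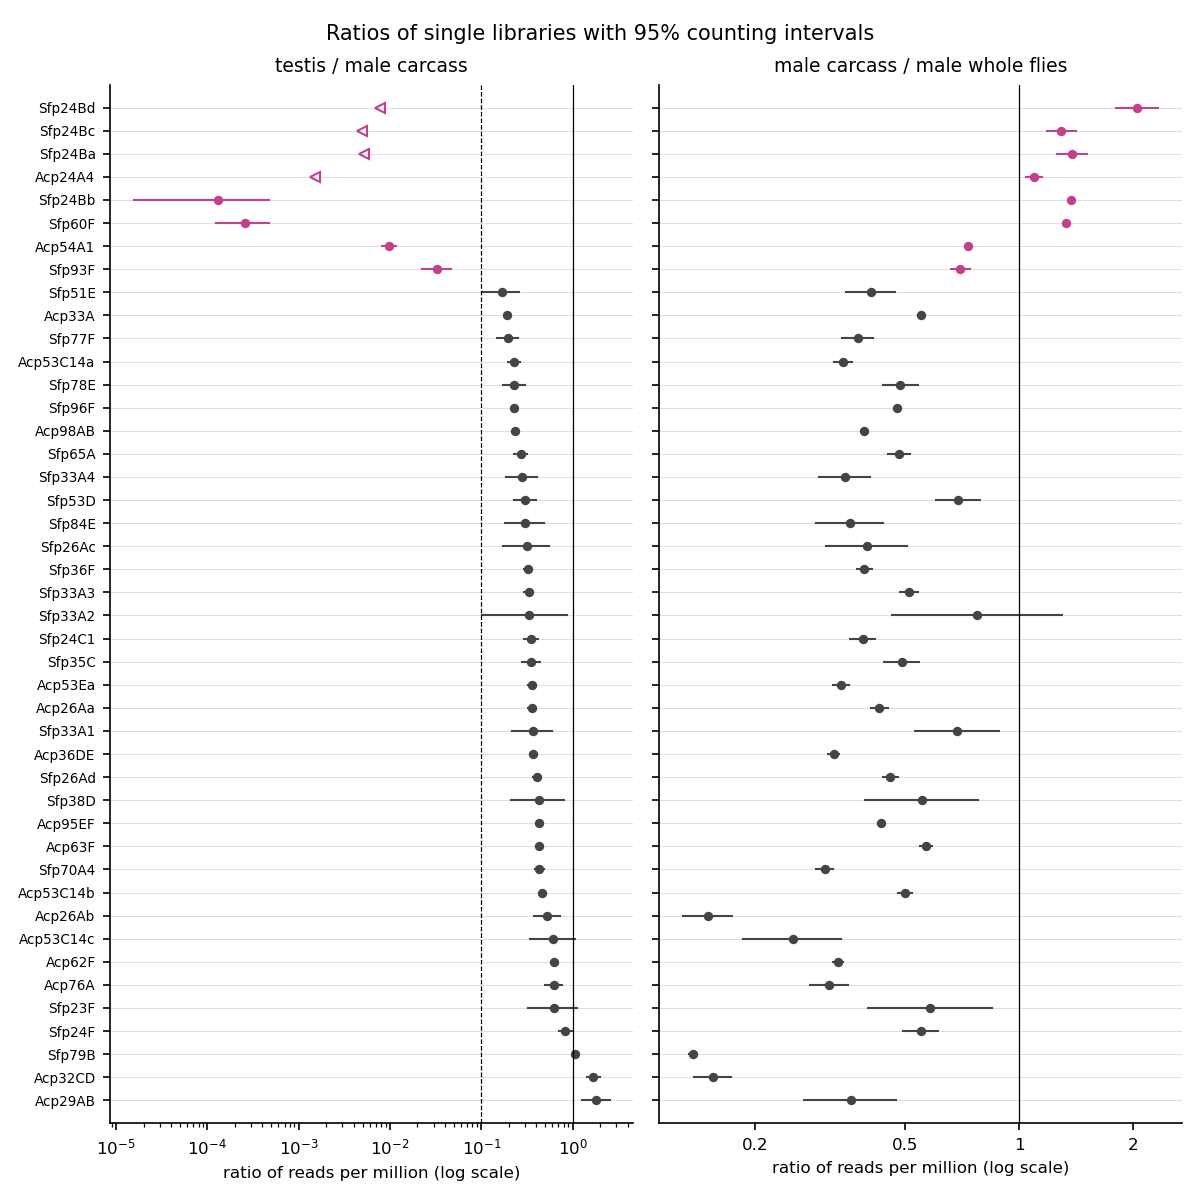
Ratio of TMM-scaled RPM (x axes, log scale) for each of the 44 genes with counts (y axis, ordered by the left panel), testis over male carcass on the left and male carcass over male whole flies on the right, with 95% counting intervals and open triangles at the limit set by 0 testis counts. Magenta marks the 8 genes left of the dashed line at 0.1, whose carcass to whole-fly ratios run from 0.699 to 2.05, and grey marks the other 36, which run from 0.137 to 0.775.

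The RNA-seq library of testis, made from the same RNA, gave a second reading of the testis levels. The 45 genes took 0.107% of its reads (0.106–0.108), and 39 had more than 3 counts, where 84.1% of all genes did. The 8 genes of the lower group summed to 227 counts, of which 154 were of Acp54A1 and 68 of Sfp93F. Sfp60F had 4 counts, Sfp24Bb had 1, and Acp24A4, Sfp24Ba, Sfp24Bc, and Sfp24Bd had 0. The 36 genes of the upper group summed to 24486 counts and none had fewer than 20. In RNA-seq, 6 genes of the lower group were thus below every gene of the upper group, whereas Acp54A1 and Sfp93F fell within its range. Carcass has no RNA-seq library, so that the ratio itself was measured in 3′-seq alone, and a shared RNA sample means that the RNA-seq library is no separate dissection.

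The assays differed in how they ranked short genes. The 45 genes are short, with a median exon length of 456 bases beside 1754 over the 12060 genes that could be placed, and 32 of the 45 (71.1%) are under 600 bases, against 8.04% of all placed genes. For the 37 genes with at least 10 counts in both testis libraries, the median of log2 RNA-seq RPM minus log2 3′-seq RPM was −3.19 under 400 bases (15 genes), −1.57 from 400 to 600 bases (10 genes), and −0.94 from 600 bases (12 genes). The same medians over all genes were −2.55 (99 genes), −1.80 (363 genes), and −0.20 (8054 genes). Sfp79B, of 233 bases, had 4048 counts in 3′-seq (858 RPM) and 203 in RNA-seq (10.5 RPM). Sfp96F, of 168 bases, had 1890 counts (401 RPM) and 120 counts (6.22 RPM). Sfp36F, of 254 bases, had 415 counts (88.0 RPM) and 27 counts (1.40 RPM). By contrast, Acp36DE, the longest at 2923 bases, had 953 counts (202 RPM) and 9470 counts (491 RPM), and Acp76A, of 1201 bases, had 116 counts (24.6 RPM) and 1422 counts (73.7 RPM).

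Division of the RNA-seq values by exon length removed the trend with length among the 37 genes but not the spread. Medians per kb of exon were −0.97, −0.56, and −0.89 in the same 3 length classes. Sfp79B (−4.25), Sfp36F (−3.998), and Sfp96F (−3.44) stayed lowest, and Acp53C14c (1.91) was highest. Within testis, the order of the 45 genes in 3′-seq and in RNA-seq per kb had a Spearman rho of 0.88, as a description across genes of a single RNA sample.

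**Figure D4:**
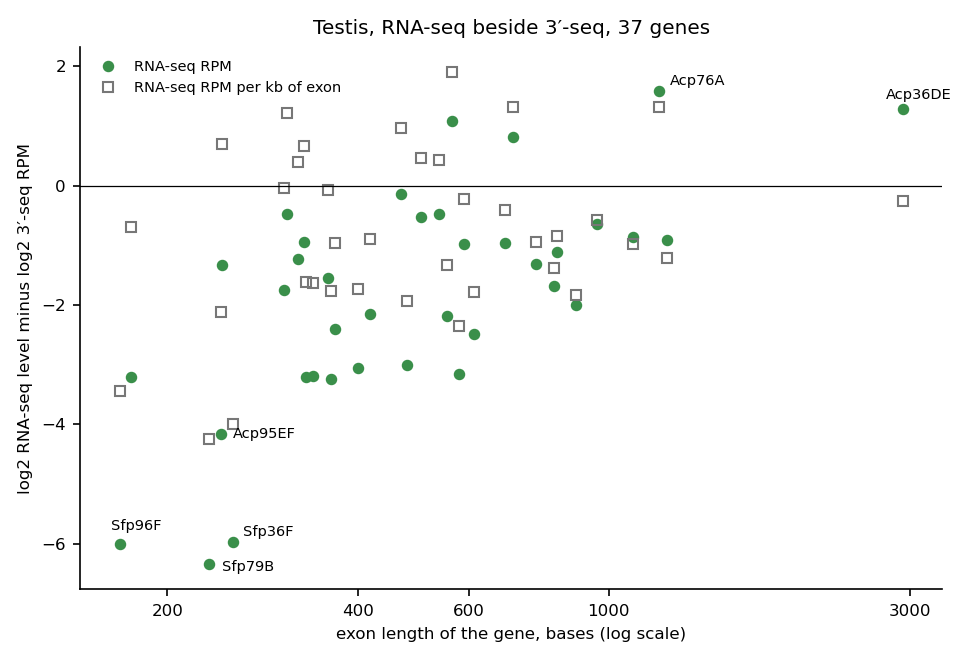
Log2 RNA-seq level minus log2 3′-seq RPM in testis (y axis) against exon length in bases (x axis, log scale) for the 37 genes with at least 10 counts in both libraries, 1 library per assay, as RPM (filled circles) and as RPM per kb of exon (open squares). Sfp79B, Sfp96F, and Sfp36F lie lowest on both scales, and Acp76A and Acp36DE lie highest on the RPM scale.

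Other genes of the male tract, from lists of known products, were set beside the 45. The ejaculatory duct and bulb list had 15 symbols, of which 8 were in the table, and 7 of these 8 had a testis level under 0.1 of the carcass level. At least 10-fold higher levels in male carcass than in testis were seen for 9.96% of all genes. Between male and female carcass, 7 of the 8 were at least 4-fold higher in the male. Ebp, a protein of the ejaculatory bulb and the mating plug, had 15859 RPM in male carcass, 10796 RPM in male whole flies, and 0.636 RPM (3 counts) in testis. EbpII had 5507, 4410, and 0.424 RPM. These profiles were of the same form as those of Sfp60F and Sfp24Bb. Dup99B, a duct peptide related to sex peptide, had 668 RPM in male carcass, 2602 RPM in male whole flies, and 26.9 RPM in testis. Anp (andropin), an antimicrobial peptide of the duct, had 4822, 8017, and 131 RPM, and Est-6, a secreted esterase, had 3095, 2588, and 66.6 RPM. Thus Dup99B and Anp were lower in carcass than in whole flies, at 0.257 and 0.601, although the testis level of both was under 0.1 of the carcass level. The exception in testis was msopa, with 973 RPM in male carcass, 3144 RPM in male whole flies, and 655 RPM in testis. The exception between the sexes was EbpIII, at 2.92-fold. EbpIII and Est-6 had 2049 and 682 RPM in female carcass, and 4635 and 343 RPM in head of females. The part of the male tract in their carcass reads was not tested.

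Of 17 other accessory gland products in the table (20 listed), 4 had testis levels under 0.1 of carcass, namely Met75Ca, Met75Cb, Spn77Bb, and Spn77Bc. Met75Cb had 8485 RPM in male carcass, 12029 RPM in male whole flies, and 141 RPM in testis. The pair of serpins Spn77Bb and Spn77Bc had testis to carcass ratios of 0.0150 (0.0121–0.0185) and 0.0157 (0.0122–0.0199). The remaining 13 were above 0.1. Of these, BG642312 (0.113, interval 0.105–0.122) and SP (0.159, interval 0.147–0.171) lay in the gap between the Acp and Sfp groups. Mst57Da had 4409 RPM in male carcass, 6585 RPM in male whole flies, and 1428 RPM in testis, and Mst57Db had 4063, 8982, and 1147 RPM. Between male and female carcass, 16 of the 17 were at least 4-fold higher in the male.

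The sex peptide network comprises proteins that bind sex peptide to stored sperm, and all 10 listed genes were in the table. In carcass, 8 of the 10 were at least 4-fold higher in the male, and the exceptions were hdly and Esp, which are known to act in the female. The male-derived members were moderate in level. The lectin gene lectin-46Ca had 123 RPM in male carcass, 204 RPM in male whole flies, and 29.5 RPM in testis, and aqrs had 78.0, 160, and 32.4 RPM. The ratio of testis to carcass was under 0.1 only for intr, which had 7 testis counts (0.0958, interval 0.0379–0.202, which extends past 0.1). Of the transcription factors known from accessory gland development or secondary cells, prd had 9.18 RPM in male carcass, 21.8 RPM in male whole flies, and 7.84 RPM in testis. Abd-B and dve were also detected in all 3 male libraries, and both were lower in male whole flies (10.9 and 12.6 RPM) than in male carcass (19.8 and 25.8 RPM). Between male and female carcass, 1 of these 3 genes, prd, was at least 4-fold higher in the male. Abd-B and dve had 8.06 and 34.3 RPM in female carcass, and 58.9 and 53.9 RPM in 6–12 h embryos.

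**Figure D5:**
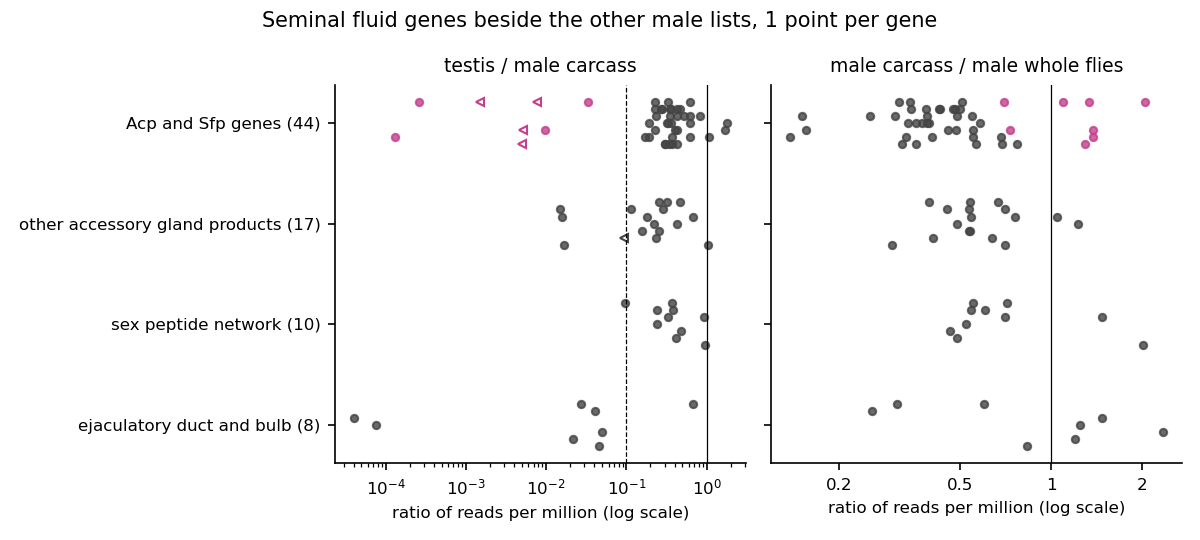
Ratio of TMM-scaled RPM (x axes, log scale) for single genes, testis over male carcass on the left and male carcass over male whole flies on the right, in the 44 Acp and Sfp genes with counts and the 3 other male lists (y axis, number of genes in brackets), with open triangles at the limit set by 0 testis counts. Left of the dashed line at 0.1 are 8 of the 44 genes (magenta), 4 of 17 accessory gland products, 1 of 10 sex peptide network genes, and 7 of 8 duct and bulb genes.

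Of 2065 genes with at least 100 RPM in male carcass, those most like the summed profile of the 45 over the 23 libraries were CG43147, Mst57Db, Met75Cb, CG44388, CG17097, SP, CG17472, CG9029, Mst57Da, and CG43319. Their Pearson r of log2 (RPM + 1) ran from 0.94 to 0.95, over 23 libraries of which 20 are near 0 for both profiles. Of the 10, 5 were on the accessory gland list above. The share of that list among the 2065 genes was not calculated. Met75Cb had a testis to carcass ratio of 0.0166, and the other 9 ran from 0.159 to 0.347. CG43147, the most alike, had 1481 RPM in male carcass, 3415 RPM in male whole flies, and 459 RPM in testis.

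Reads outside the male libraries were few and uneven. Over the other 20 3′-seq libraries, the 45 genes had 1156 reads, of which 510 were in 0–45 min embryos. The 10 cell lines had 465 in all, with at most 153 in a line (Dmd4). With a minimum of 10 counts, 18 genes appeared in a library other than the male ones and 0–45 min embryos, the RNA-seq libraries of head and ovary included. The highest value there was 41 counts (7.69 RPM) for Acp36DE in OSS, a line of ovarian somatic sheath cells. In Dmd4 cells, Sfp36F had 27 counts, Sfp77F 25, and Sfp24Bc 20. In cmel1 cells, Sfp26Ad had 20 counts and Sfp65A 19. In head, Sfp33A3 had 28 counts in 3′-seq (2.99 RPM) and 28 in RNA-seq (0.712 RPM), against 2053 in male carcass. The neighbours Acp53C14b, Acp53C14c, and Acp53Ea had 15, 35, and 12 counts in head RNA-seq. None of the 45 genes reached 10 counts in ovary in either assay. The shares of all genes that reach 10 counts in these libraries were not calculated, so that these counts have no background.

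Some of the genes, though not all of those with such low counts, overlap other genes. By the annotation of the dm6 genome, Acp36DE lies inside Fas3, Acp33A inside kek2, Acp32CD inside Samuel, and Acp62F inside Mrtf, each on the opposite strand. The Sfp24B genes lie inside Drgx, and Sfp33A2, Sfp33A3, and Sfp33A4 lie inside Pde1c, again on the opposite strand. Acp63F lies inside Scsalpha1, Acp95EF inside Spase22-23, and Sfp65A inside CG13300, each on the opposite strand as well. Whether strand was used in counting is not stated. All 45 genes had 0 counts in female whole flies, whereas Acp36DE had 41 in OSS cells and Sfp33A3 had 28 in head. The part of such overlaps in the counts outside the male libraries was not tested.

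The genes were uneven in position, and among neighbours only the Sfp24B genes fell together in the lower testis group. No Acp or Sfp gene lies on the X chromosome, which carries 15.97% of the placed genes, and 23 of the 45 (51.1%) lie on 2L, which carries 19.5%. Genes with a neighbour of the set within 10000 bases form 5 clusters with 17 genes. The cluster of Sfp24Ba, Sfp24Bd, Sfp24Bb, and Sfp24Bc (2L:3667977-3670581) holds 4 of the 8 genes of the lower testis group. Acp24A4 and Sfp24C1 follow on 2L at 3693184 and 3700674. Acp24A4 had 0 testis counts whereas Sfp24C1 had 168, with 4182 and 996 in male carcass, so that these neighbours fell on either side of the split. The cluster of Sfp53D, Acp53C14a, Acp53C14b, Acp53Ea, and Acp53C14c (2R:16744295-16751495) belonged wholly to the upper group. That group holds 36 of the 44 genes with counts, so that a whole cluster within it is not unusual. Its testis to carcass ratios were 0.303, 0.228, 0.460, 0.3598, and 0.614 in that order, while the carcass levels ran from 6.22 RPM (Acp53C14c) to 340 RPM (Acp53C14b). The cluster of Sfp33A4, Sfp33A2, and Sfp33A3 (2L:11837243-11840329) also lay in the upper group, with 24.1, 3.16, and 209 RPM in male carcass. In the cluster of Sfp26Ac, Acp26Ab, and Acp26Aa (2L:5884350-5893896), Acp26Aa exceeded Acp26Ab 11.2-fold in carcass and 3.94-fold in whole flies.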

How the data were processed

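The authors prepared 3′-seq libraries and total RNA-seq libraries from total RNA, mapped the D. melanogaster reads to dm6, assigned them to genes with featureCounts on gene models with extended 3′ UTRs, and deposited raw counts per gene. The submitters' processing notes name Trimmomatic 0.36 and HISAT2. The counting options, including the use of strand, are not given in the sources used here. How reads on overlapping genes were assigned was not tested.

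RPM was calculated with TMM factors in edgeR 4.0.16 (R 4.3.3), over the 23 3′-seq libraries together and over the 3 RNA-seq libraries separately. Counts under 3 were raised to 3 for folds and log2 differences. With 1 library per condition, no model was fitted. Shares have exact binomial (Clopper-Pearson) intervals and ratios have exact conditional binomial intervals, at 95%, and these cover counting error only. The steps ran in Python 3.11.15 with scipy 1.17.1 for the intervals, pandas 2.3.3 and numpy 2.4.6 for tables, and matplotlib 3.10.9 for plots, and were tested on simulated data. Positions, exon lengths, and overlaps come from the Ensembl release 115 annotation of dm6.

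Named genes were the 10 highest in male carcass, those with a described role, those with a testis level of at least 0.1 of carcass, those with at least 10 counts in other libraries, those with 3 counts or fewer in carcass, the extremes of the ratio of carcass to whole flies, the marker lists, and the 10 genes most alike in profile. The members, lists, and alternatives were chosen with earlier results of these data known. Alternatives were library totals, DESeq2 1.42.0 size factors, folds of 2 and 10, a floor of 1 count, a minimum of 10 counts, and other denominators. D. virilis tables were not used, and D. yakuba counts were used in the closing section only.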

Additional observations from a re-analysis of the deposited data

Results flagged for a closer look

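The library of 0–45 min embryos, which enters no comparison above, held 510 reads of the seminal fluid genes in 5299412 (Poisson interval 467–556). Female whole flies held 0, ovary 19, and embryos of 90 min–6 h and 12–18 h held 0. Embryos of 6–12 h held 31 and those of 18–24 h held 29. For the 10 genes with at least 10 of these reads, there were between 1.01 (Sfp24Bb) and 2.27 (Acp36DE) embryo reads per 1000 reads in male whole flies, and between 0.624 (Sfp24Bb) and 7.35 (Sfp79B) per 1000 reads in male carcass. Acp95EF had 116 embryo reads, Sfp79B 58, and Sfp60F 55. Ejaculatory duct and bulb genes had 314 embryo reads, at 1.10 per 1000 reads in male whole flies (0.982–1.23). Other accessory gland products had 943, at 2.95 per 1000 (2.76–3.14), of which 595 were of NUCB1, also counted in ovary (1770), and without it the list was at 1.09 (0.982–1.22). The sex peptide network had 49, at 7.43 per 1000, of which 45 were of Esp, also counted in ovary (561), and without it the list was at 0.622 (0.169–1.59). NUCB1 and Esp were set apart after their values were seen. Head and brain genes were at 15.1 per 1000, testis germline genes at 28.0, and ovary germline genes at 3150. Genes also counted in ovary weighed on the first and second of these lists too. Of the 496 embryo reads of head and brain genes, 365 were of norpA (657 in ovary). Of the 555 of testis germline genes, 493 were of bam (662 in ovary). Values without norpA and bam were not calculated, so that these lists do not set the seminal fluid genes apart. The source of these reads was not tested.

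In D. yakuba, whose tables were scaled separately, the testis 3′-seq library had 14167 counts of Acp26Aa (2704 RPM) and 9816 of Acp53Ea (1874 RPM). Head had 19 and 9 counts, ovary had 7 and 6, and both embryo libraries had 0. RNA-seq of the same testis RNA gave 149663 and 66141 counts. Acp26Aa ranked 44 among all genes of that 3′-seq library and Acp53Ea ranked 69. The D. melanogaster testis library had 84.2 and 78.4 RPM for the same symbols. Dissection and species cannot be told apart here.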

How the results depend on the processing

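Of 44 alternatives, 31 kept a count within 1.5 times, a share within its interval, or a median within 0.1 on the log2 scale, 13 moved it further, and none reversed the direction of a median. Leaving the 3 genes with the most counts out of the totals gave seminal fluid shares of 2.08% in male carcass, 4.497% in male whole flies, and 0.346% in testis. Adding the other accessory gland and sex peptide network genes gave 3.57%, 7.67%, and 0.551%, respectively. With folds of 2 and 10, 35 and 8 genes were higher in male carcass than in testis, and with a fold of 2, 1 gene was higher in male carcass than in male whole flies. Scaling to library totals gave a median log2 difference of 1.85 for carcass minus testis and −1.42 for carcass minus whole flies, and 6 genes at least 4-fold higher in whole flies than in carcass. DESeq2 size factors gave −0.62 for carcass minus whole flies. The alternatives for the split at 0.1 and for whole flies over carcass were added after the data were seen. With 1 library per condition, differences between flies, dissections, and libraries were not measured, and depth limits low genes, since 3 counts correspond to 0.636 RPM in testis and 1.48 RPM in female whole flies.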
